A study of Bombus terrestris with 16 samples.

Results

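The lysosome and its proton pump were followed in the gut of a bumblebee, Bombus terrestris, through 57 transcript records of the 10635 in the deposited table. A record was taken when its deposited KEGG description carried a hit score of at least 100 and named the V-type proton pump, a cathepsin, saposin, Niemann-Pick protein, acid phosphatase, vacuolar protein sorting protein, legumain or anything lysosomal. No measured level entered that choice. The 57 are 18 pump records, 8 proteases, 11 lipid carriers, 9 acid phosphatases, 8 other lysosomal proteins and 3 records named for vacuolar protein sorting, and no record was described as legumain. Of the 62 records that carried one of these words at any score, 5 fell under 100. Descriptions give the nearest match in a database and not a tested function. The deposited gene ontology columns gave proton transport or the V-type pump for 16 of the 18 pump records, but a lysosome component for 1 of the other 39, of which 5 had any component at all. The record described as vacuolar protein sorting 72 (XM_003403100.1) carries a chromatin complex as its component and is a lysosome record by its words only.

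The bees belonged to colonies named K, L, S and T. Control workers were not exposed, and the others met genotype 068, 075 or 161 of the gut trypanosome Crithidia bombi. Each colony gave 1 library per exposure, 16 in all, made from poly(A) RNA of 3 workers combined, aged 7 d and killed 18 h after exposure. Each exposure and each colony thus had 4 libraries, p-values measure the spread between such pools, and the spread between single workers was not measured. Library totals ran from 8.47 to 9.29 M reads. Records described as gut digestive enzymes summed to between 67410 RPKM in the K control and 95182 RPKM in S 068. Records of the Malpighian tubule list summed to 843 to 1188 RPKM, of muscle to 477 to 682, of nervous system to 223 to 251 and of hemocytes to 94.7 to 121, and no description matched the fat body and gland lists. Few records carried some of these sums. A glutamate decarboxylase averaged 145 RPKM in the nervous system list, and scavenger receptors averaged 49.5 and 32.8 in the hemocyte list. The sums therefore do not measure how much of each tissue was present. RPKM is a read count divided by record length and library total, so levels of different records are compared in RPKM only.

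A lysosome is an acid compartment in which proteins, lipids and sugars brought in by endocytosis, phagocytosis or autophagy are broken down. Its acid is made by the V-type ATPase, a rotary pump whose V1 sector in the cytosol splits ATP and whose V0 sector in the membrane carries protons across it. Cathepsins cut proteins in that acid, saposins present sphingolipids to the enzymes that degrade them, and Niemann-Pick C2 and C1 proteins pass sterols from the lumen to the membrane. In insects the same pump also sits in the outer membrane of gut and Malpighian tubule cells, where it drives ion transport, so its RNA in a whole gut is not RNA for lysosomes alone.

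By mean RPKM, a soluble lipid carrier and one protease held most of the summed level of the 57 records. Read counts, which are not divided by length, gave another order of groups. Pump records took a mean of 0.935% of all reads, proteases 0.718% and lipid carriers 0.697%. The Niemann-Pick C2 record LOC100647216 (XM_003395399.1) stood at 7548 ± 3183 RPKM (SD, n = 16) and ranked 15 among all 10635 records. It alone held 47.8% of the summed RPKM of the 57 records. Cathepsin D (XM_003403018.1), an aspartic protease, stood at 3117 ± 298 RPKM and ranked 25, and the pair held 67.6%. The proteolipid c of the pump (LOC100646343, XM_003396129.1) followed at 755 ± 65.7 RPKM, then an acid phosphatase (LOC100651713, XM_003394388.1) at 491 ± 82.0 and cathepsin L (LOC100645780, XM_003402169.1) at 446 ± 61.8. In all, 17 records averaged at least 100 RPKM, 19 averaged less than 10 and 5 less than 1. Reads were found in all 16 libraries for 52 of the 57, and 5 had none in at least 1 library.

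**Figure D1:**
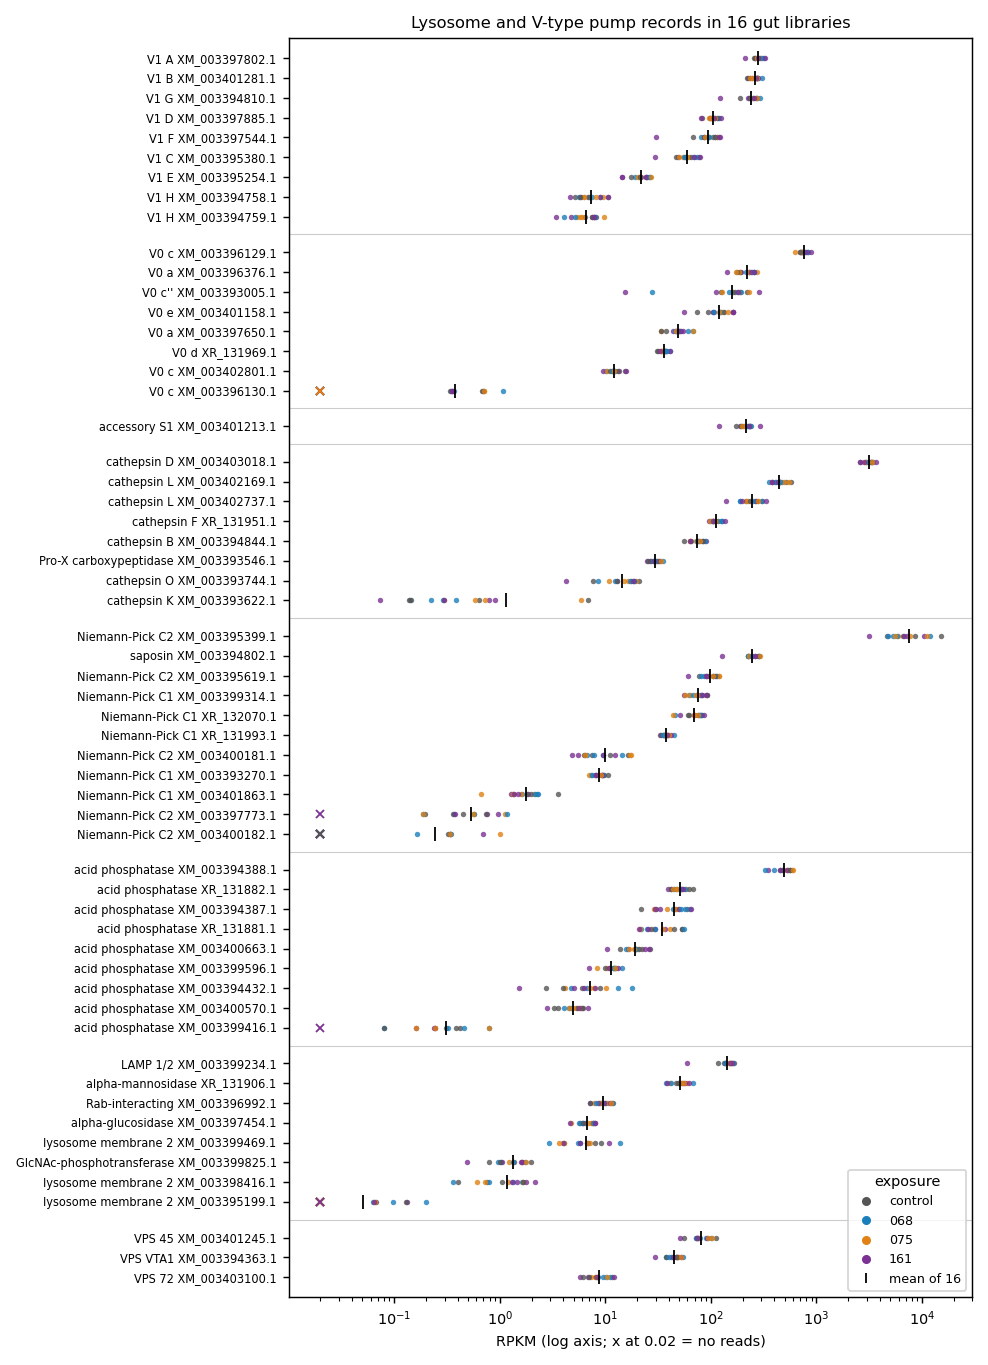
Level of each of the 57 records in the 16 libraries, in RPKM on a log axis, grouped by role; points are libraries coloured by exposure, a vertical bar is the mean of 16 and a cross marks no reads. Niemann-Pick C2 XM_003395399.1 and cathepsin D lie above every point of the other records, and the 5 Niemann-Pick C2 records differ up to 31135-fold.

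Records that share a name differed widely in level. The 5 Niemann-Pick C2 records ran from 7548 RPKM to 0.242 (XM_003400182.1), a ratio of 31135, and the 9 acid phosphatases from 491 to 0.308 RPKM (XM_003399416.1). The smallest ratio of a shared name was 1.12, between the 2 records of pump subunit H of V1 (XM_003394758.1 and XM_003394759.1), at 7.34 ± 1.89 and 6.57 ± 1.74 RPKM. Both belong to 1 locus, LOC100648051, so they are not separate genes and their reads may be split between them. Besides this pair, 4 sets of 2 or 3 records had the same best database hit, among them the acid phosphatases XM_003394387.1, XM_003394388.1 and XM_003399596.1 and the proteolipids XM_003396129.1 and XM_003396130.1. How reads shared between such records were assigned is not given in the sources used here, so the levels of these records carry that uncertainty.

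The V1 subunits that hold the catalytic sites stood at nearly equal levels. Subunit A (LOC100643332, XM_003397802.1), which binds and splits ATP, stood at 279 ± 26.1 RPKM, and subunit B (LOC100644823, XM_003401281.1), its partner in the ring, at 260 ± 23.8. Subunit A was the higher in 14 of 16 libraries, but the gap was smaller than either SD. Subunit G (LOC100644800, XM_003394810.1), part of the stalks that hold the ring still, followed at 240.3 ± 39.6 RPKM. Subunit D (LOC100643813, XM_003397885.1) and subunit F (XM_003397544.1), which form the turning shaft, stood at 104 ± 12.2 and 94.9 ± 22.9 RPKM. Subunit C (XM_003395380.1), which joins stalk and membrane sector, stood at 59.6 ± 12.8, and subunit E (LOC100648858, XM_003395254.1), the partner of G in the stalks, at 21.8 ± 3.88. The means of A, B and G differed from their neighbours among these 3 by less than the larger SD, as did D from F, while C and E stood apart from the subunits above them.

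In the membrane sector the proteolipid c led by far. It lines the rotor ring in several copies, and its record XM_003396129.1 took 49.1% of all pump reads and stood above subunit A in 16 of 16 libraries. Its lowest, median and highest levels were 633, 738 and 892 RPKM. The same name also covered a second record at 12.1 ± 1.66 RPKM (LOC100647951, XM_003402801.1) and a record of 321 bases with at most 3 reads in a library (XM_003396130.1), at 0.374 RPKM. Subunit a, the stationary channel protein that KEGG lists as subunit I, had 1 record at 218 ± 37.3 RPKM (XM_003396376.1) and 1 at 49.1 ± 10.2 (LOC100644609, XM_003397650.1). The second rotor proteolipid, c'' (LOC100646695, XM_003393005.1, listed as the 21 kDa proteolipid), stood at 159 ± 68.5 RPKM, the small subunit e (LOC100649858, XM_003401158.1, listed as subunit H) at 120.1 ± 30.2, and subunit d (XR_131969.1, listed as AC39) at 35.9 ± 2.92. The accessory protein S1 (XM_003401213.1), which in mammals helps the membrane sector to assemble, stood at 214 ± 36.9 RPKM.

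Part of this order changed when the covered share of each record was taken into account. The deposited coverage column gives the percent of a record covered by reads, and 5 tested pump records were under 40% in all 16 libraries. The c'' record was covered over 31.3% to 33.8% of its 1317 bases, subunit E over 20.2% to 22.6% and subunit d over 19.5% to 39.5%. When each RPKM was divided by the covered share, a calculation added after the data were seen, c'' averaged 483 ± 205 and moved from rank 7 to rank 2 of the 18 pump records. Subunit d averaged 132 ± 26.0 and moved from rank 13 to 11, and E 101 from rank 14 to 12. The proteolipid c kept rank 1 at 783 ± 68.2. The covered share is also limited where reads are few, and what set it in these records was not tested.

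**Figure D2:**
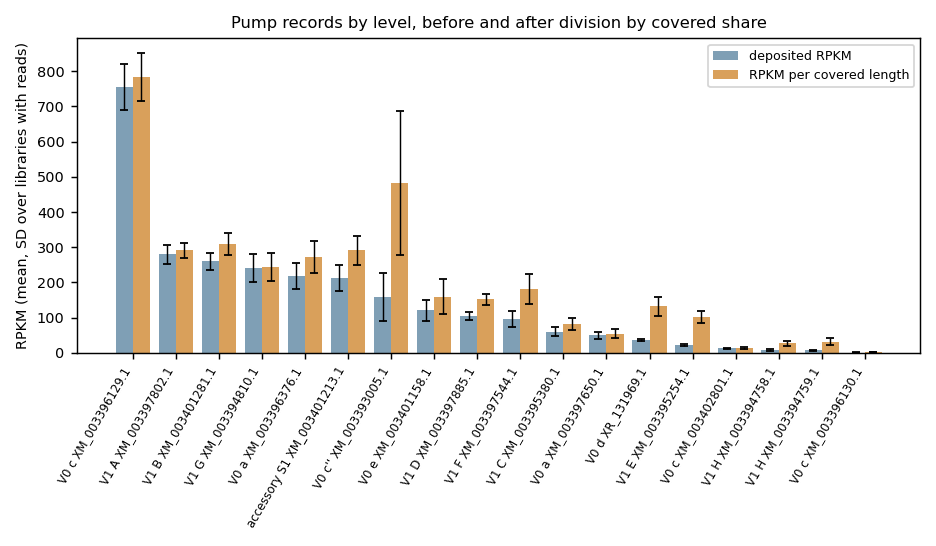
Mean level of the 18 pump records, as deposited RPKM and as RPKM divided by the covered share of the record; bars start at 0 and whiskers are SD over the libraries with reads. Proteolipid c is first on both scales, at 755 and 783, while c'' rises from 159 to 483.

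Most members varied little from library to library, and at like levels about as much as other records. The 53 members that passed the filter on low counts had a median coefficient of variation of 17.8%, against 24.2% for all 8406 records that passed. Among records of at least 100 RPKM, which have less counting error, the 2 medians were 16.5% for 17 members and 16.3% for 491 records of the whole table. Proteolipid c varied by 8.70%, subunit B by 9.13%, subunit A by 9.35% and cathepsin D by 9.57%. Among these 17 members c'' varied by 42.9% and the abundant Niemann-Pick C2 by 42.2%, and less abundant members reached higher values.

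The summed level of the 18 pump records was 2638 ± 309 RPKM (SD, n = 16). It was lowest in L 161, at 1878 RPKM, followed by the L control at 2268, and highest in S 161 at 3215. This order depended on the scaling. RPKM divides by the library total, while the tests used totals adjusted by TMM, which raise values of L 161 by a factor of 1.23, the largest of the 16. With adjusted totals, a calculation added after the data were seen, the pump sum was lowest in the K control, at 2302, with T 075 at 2309 and L 161 at 2316, and highest in L 068 at 2951. In RPKM 12 of the 17 tested pump records had their lowest level in L 161, as did 28 of 53 members and 36.5% of all tested records. In CPM with adjusted totals 6 of 17, 16 of 53 and 24.1% did. In tissue pools such as these, fewer cells of a type and less RNA per cell cannot be told apart.

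The low values of L 161 were unequal among subunits. Proteolipid c'' stood at 15.2 RPKM in L 161 and at 27.8 in K 068, and between 113 and 283 RPKM in the other 14 libraries. Subunit F stood at 30.1 RPKM in L 161 and between 68.4 and 122 elsewhere. Subunit G, at 122 RPKM, and S1, at 119, were also far under their other libraries, which began at 190 and 174. Proteolipid c, by contrast, stood at 725 RPKM in L 161, near its median, and subunit d at 36.6, and with adjusted totals both had their highest CPM of the 16 libraries there, at 5434 and 388.

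Across the pump records these differences tended to rank with record length, with exceptions such as the long subunit a record XM_003396376.1. In L 161 the deviation of a record from its own mean over the libraries, in log2 CPM (read counts scaled to library size), rose with record length over the 17 pump records, with a Spearman rho of 0.77, given as a description of 1 library. The same rho was 0.36 over the 53 tested members and 0.19 over all 8406 records. The 7 members shorter than 1400 bases had a median deviation of -0.65 and the 9 of at least 4000 bases 0.30, against -0.25 and 0.14 for all records of these lengths. In K 068, the other library with little c'', rho was 0.60 over the pump records, 0.35 over the tested members and -0.05 over all records. In the remaining libraries rho over the pump records ran from -0.52 in S 161 to 0.50 in the L control. A trend with length was thus not confined to the libraries with little c''. The part of record length or RNA quality in the low subunits of L 161 was not tested.

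**Figure D3:**
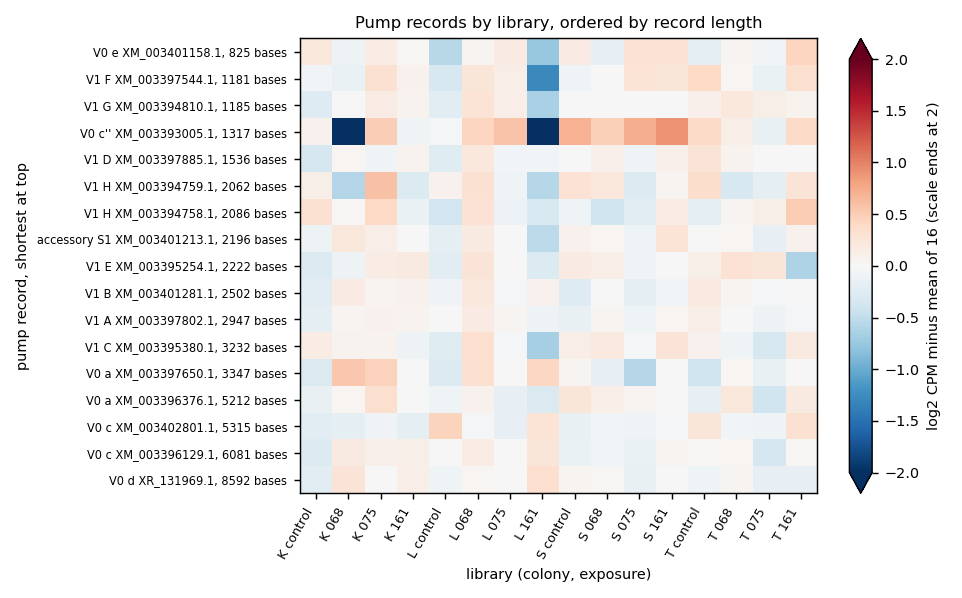
Deviation of each tested pump record from its mean over 16 libraries, in log2 CPM, with libraries in columns and records from shortest to longest in rows; the colour scale ends at 2 in both directions. L 161 shows low values in the upper rows, with c'' and subunit F lowest. Most of the longest records lie above 0 there, but the long subunit a record XM_003396376.1 lies at -0.29. K 068 shows its low value in c''.

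Cysteine proteases stood well under cathepsin D. A second cathepsin L record (XM_003402737.1) had 243 ± 52.1 RPKM, cathepsin F (XR_131951.1) 111 ± 12.1 and cathepsin B (LOC100648705, XM_003394844.1) 74.4 ± 10.1. The Pro-X carboxypeptidase (LOC100645620, XM_003393546.1), which trims peptides behind a proline, had 29.8 ± 2.86 RPKM and cathepsin O (LOC100650715, XM_003393744.1) 14.5 ± 4.79. Cathepsin K (LOC100645310, XM_003393622.1), a collagen-cutting enzyme in mammals, was nearly silent: it reached 6.88 RPKM in the K control and 5.88 RPKM in S 075, but at most 0.904 RPKM in the other 14 libraries. The 2 libraries with the highest cathepsin K came from different colonies and different exposures.

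Among the lipid carriers, the level of the abundant Niemann-Pick C2 differed 4.86-fold between the highest and lowest library. It stood at 4611, 4786, 5951 and 7283 RPKM in the K control, K 068, K 075 and K 161, and at 8585, 5856, 7643 and 10351 in the same order in L. In S the 4 values were 6601, 5313, 5568 and 3138, and in T 15254, 11822, 11261 and 6750 RPKM. The 3 highest libraries were thus the T control, T 068 and T 075, and the lowest was S 161. Saposin (XM_003394802.1), the precursor of the sphingolipid activators, stood at 244 ± 38.8 RPKM, with 128 in L 161 as its lowest value. The other C2 records reached 97.6 ± 16.8 (LOC100643802, XM_003395619.1) and 9.94 ± 4.35 RPKM (LOC100649270, XM_003400181.1), and 2 more were under 1. Of the Niemann-Pick C1 records, which describe the membrane partner, 3 averaged 75.0 (LOC100650737, XM_003399314.1), 69.3 (XR_132070.1) and 37.6 RPKM (XR_131993.1) and 2 averaged under 10.

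The 9 acid phosphatases, enzymes that remove phosphate groups at low pH, had 1 abundant member and 8 at 50.6 RPKM or less. After XM_003394388.1 came XR_131882.1 at 50.6 ± 7.91, XM_003394387.1 at 44.6 ± 13.1 and XR_131881.1 at 34.4 ± 12.04 RPKM. Among the remaining members, the lysosome-associated membrane protein (LOC100650854, XM_003399234.1), a main glycoprotein of the lysosome's membrane, stood at 142 ± 25.6 RPKM and at 59.2 in L 161. Lysosomal alpha-mannosidase (XR_131906.1), which trims sugars from glycoproteins, stood at 50.9 ± 8.47. The Rab-interacting lysosomal protein (LOC100643120, XM_003396992.1), which in mammals ties late endosomes to a motor, had 9.49 ± 1.52 RPKM. Lysosomal alpha-glucosidase (XM_003397454.1), which degrades glycogen, had 6.63 ± 1.10. Vacuolar protein sorting 45 (XM_003401245.1), which steers fusion at endosomes, stood at 80.9 ± 16.4 RPKM, and VTA1 (XM_003394363.1), a helper of the ATPase that recycles the endosomal sorting complexes, at 44.9 ± 6.36.

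The first comparison asked whether exposure to the parasite changed these records, over the 3 genotypes together. No member was called between the 12 exposed and the 4 control libraries at an adjusted p of 0.05 in edgeR's quasi-likelihood test, and none in DESeq2; edgeR called 0% of the 8406 records tested. At an unadjusted p under 0.05 there were 2 of 53 members, 3.77%, and 3.13% of all records. For 0 of 53 members were the control and exposed ranges apart in CPM, against 0.0238% of all records. Of the 53, 32 had a higher estimate in exposed guts, against 44.1% of all records, and the members' median log2 difference was 0.04 against -0.02. The 95% interval of the difference lay within 1 log2 unit in both directions for 47 of 53, so for the other 6 a 2-fold difference lies inside the interval.

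The pump records had mostly small positive estimates. The log2 difference was above 0 in 13 of the 17 tested, with a median of 0.08 and a range from -0.25 to 0.29, and none passed. Subunit A stood at 291, 260.5, 255 and 280.1 RPKM in the controls of K, L, S and T, and at 211.5 to 323 with a median of 279 in exposed guts, a log2 difference of 0.07 ± 0.09 (SE). Proteolipid c stood at 743, 712, 696 and 706 RPKM in the controls and at 633 to 892 with a median of 769 in exposed guts. Its log2 difference was 0.12 ± 0.10 and was above 0 in 3 of 4 colonies. The groups overlapped in both records. Without the K control, S 075 and L 161, which earlier results placed at the ends of the variation between libraries, the pump's count was 13 of 17 with a median of 0.04, while over all members it was 24 of 52 with a median of -0.01. The pump median was 0.14 without the T control, 0.13 without the S control, 0.05 without the L control, 0.04 without the K control and 0.03 without colony K.

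The lipid carriers lay on the other side, with 2 of 9 tested records above 0 and a median log2 difference of -0.11, and again none passed. Without the T control, which holds the highest Niemann-Pick C2 level, their median was 0.02 and 6 of 10 were above 0, and without colony K it was -0.20. The abundant Niemann-Pick C2 had a log2 difference of -0.23 ± 0.27. Cathepsin D had 0.05 ± 0.15, with controls at 2576, 3307, 3054 and 3311 RPKM and exposed guts between 2610 and 3632, and the estimate was -0.09 without the K control. Cathepsin L XM_003402169.1 had -0.14 ± 0.13. Control and exposed levels overlapped in all 3.

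The member nearest to passing was acid phosphatase XM_003394387.1. Its controls stood at 59.2, 30.3, 45.4 and 21.8 RPKM in K, L, S and T, and its exposed libraries between 29.2 and 65.3 with a median of 47.7. The log2 difference was 0.32 ± 0.13 (unadjusted p = 0.0276, adjusted p = 0.9998, edgeR) and was above 0 in 4 of 4 colonies, but the control of K was higher than 10 of the 12 exposed libraries. Niemann-Pick C1 XM_003399314.1 was lower, with controls at 91.5, 82.9, 73.3 and 92.3 RPKM and exposed guts between 55.4 and 90.8, a log2 difference of -0.23 ± 0.11. In S its log2 changes were 0.08, 0.03 and -0.01 after 068, 075 and 161, while in the other colonies all but L 161 were lower. Acid phosphatase XR_131881.1 had -0.51 ± 0.25, but in T its log2 changes were 0.93, 0.18 and -0.26 in the same order. The same name thus covered estimates on both sides of 0: of the 9 acid phosphatases 4 were above 0 and 5 under it.

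**Figure D4:**
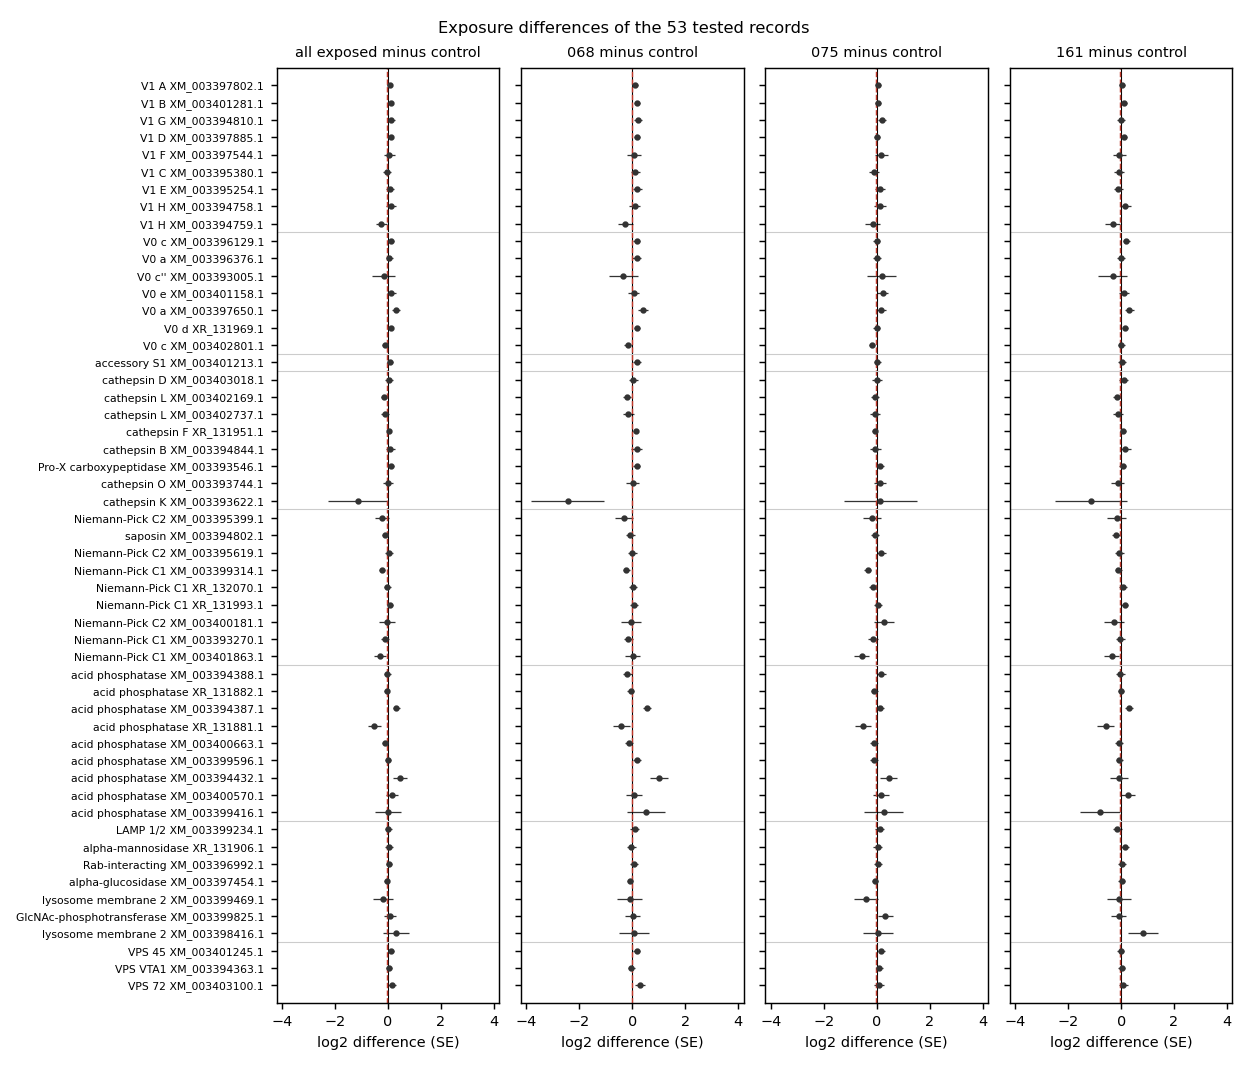
Log2 difference from the controls for the 53 tested records, for all exposed guts and for each genotype; points are edgeR estimates, bars are 1 SE, the black line is 0 and the red dashed line is the median of all 8406 records. Most points lie within 0.5 of 0, and the widest bars belong to cathepsin K.

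Each genotype was then set against the same 4 controls, so the 3 comparisons are not independent. Genotype 068 gave no called member and 0% of all records called, in edgeR and in DESeq2. Unadjusted p was under 0.05 for 3 of 53 members, 5.66%, and for 2.97% of all records. Of the members 34 were above 0, against 46.6% of records, with no range apart from the control's (1.65% of records), and of the pump records 14 of 17 were above 0, with a median log2 difference of 0.16. Without L 068 the pump count was 10 of 17 and its median 0.09. Among the V1 subunits 8 of 9 were above 0, with estimates from -0.26 to 0.22.

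The lowest p-values after 068 belonged to 2 acid phosphatases and a subunit a of the pump. Acid phosphatase XM_003394387.1 stood at 62.8, 44.0, 56.3 and 52.5 RPKM in K, L, S and T, a log2 difference of 0.55 ± 0.16 and above the colony's own control in 4 of 4. Acid phosphatase LOC100646942 (XM_003394432.1) stood at 8.92, 2.74, 6.06 and 3.99 RPKM in the controls of K, L, S and T and at 4.69, 6.77, 13.3 and 18.0 after 068. Its log2 difference was 1.002 ± 0.33, with 3 colonies up and K down. The subunit a record XM_003397650.1 had 0.40 ± 0.18. The adjusted p of each was 0.999 in edgeR's test, so none of these differences passed.

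Genotype 075 gave no called member in edgeR or in DESeq2. In edgeR 0% of all records were called, 10 records without the K control, S 075 and L 161, and in DESeq2 5 of 8406. In edgeR the unadjusted p was under 0.05 for 1 of 53 members, 1.89%, and 3.16% of records. Of the members 32 were above 0, against 47.6% of records, 0 had ranges apart from the control's, against 2.14%, and the pump median was 0.04. Niemann-Pick C1 XM_003399314.1 had a log2 difference of -0.34 ± 0.13, and a weakly expressed Niemann-Pick C1 (LOC100647360, XM_003401863.1) -0.57 ± 0.29, the latter lower than control in 4 of 4 colonies but -0.31 without S 075 and -0.13 without the K control, S 075 and L 161. Acid phosphatase XR_131881.1 had a log2 difference of -0.52 after 075. Without colony K the pump median for 075 was -0.05. Genotype 161 gave no called member and 0% of all records called, in edgeR and in DESeq2. In edgeR the unadjusted p was under 0.05 for 0 of 53 members and 1.97% of records. Lowest in p were acid phosphatases XR_131881.1 (log2 difference -0.59) and XM_003394387.1 (0.28) and subunit a XM_003397650.1 (0.32), and none passed. After 161, 25 members were above 0, against 43% of records, as were 11 of 17 pump records, and 0 had ranges apart, against 1.06%. Without L 161 the pump count was 14 of 17 and its median moved from 0.03 to 0.13, and without T 161 the median was -0.02.

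The genotypes were also compared with each other. No member was called in 161 against 075, 161 against 068 or 075 against 068, with 0% of all records called in each and no call in DESeq2. Unadjusted p was under 0.05 for 0, 1 and 1 members, beside 3.71%, 1.82% and 0.916% of records. Estimates above 0 numbered 28, 23 and 22 of 53, beside 45.6%, 47.2% and 51.5% of records. No member's ranges were apart between 161 and 075 or between 161 and 068, against 1.9% and 1.45% of records. Between 075 and 068, 2 of 53 members, 3.77%, had ranges that did not overlap in CPM, against 1.59% of all records. Subunit D stood at 163, 183, 170 and 167 CPM after 068 and at 151, 152, 151 and 157 after 075, a log2 difference of -0.16 ± 0.12. Subunit d stood at 368, 314, 314 and 319 CPM after 068 and at 305, 305, 278 and 273 after 075, with -0.18 ± 0.12. Both subunits were named because their ranges were apart, which by itself places 075 lower in all 4 colonies. Neither difference passed (adjusted p = 0.9997, edgeR). The F-test over the 4 exposures called 0 members and 0% of records, with 2 members and 1.65% of records at an unadjusted p under 0.05.

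The colonies were compared next, with the 4 exposures of a colony as its replicates. No member passed the F-test over colonies in edgeR, which called 39 of 8406 records, 0.464%. Unadjusted p was under 0.05 for 7 of 53 members, 13.2%, beside 10.2% of records. DESeq2 called 233 of 8406 records, 3 of them members: acid phosphatase XM_003394387.1, the abundant Niemann-Pick C2 and Niemann-Pick C1 XR_132070.1. No member had CPM in 1 colony that lay wholly outside those of the other 3, against 0.464% of records for K, 0.297% for L, 0.642% for S and 0.333% for T.

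Niemann-Pick C1 XR_132070.1 was low in colony S. It stood at 60.1, 45.7, 44.2 and 50.8 RPKM in the S control, S 068, S 075 and S 161, and between 61.7 and 86.6 RPKM in the other 12 libraries. In CPM the ranges overlapped, with the S control above the K control. The log2 difference of S from the other colonies was -0.70 ± 0.13, with an adjusted p of 0.0502 in edgeR and 0.000142 in DESeq2. Colony S had 21 called records, 0.25% of those tested, and none was a member. At an unadjusted p under 0.05 there were 5 members there, beside 9.56% of records, and 27 of 53 were above 0, beside 53.8%. The call turned with the libraries used: adjusted p was under 0.05 in 6 of 26 alternatives, among them 0.00179 without the K control and 0.0352 without the S control, and it reached 0.442 in the others.

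In colony S the abundant Niemann-Pick C2 was also on the low side and in T on the high side. Its log2 difference from the other colonies was -0.76 ± 0.29 in S (adjusted p = 0.455) and 0.84 ± 0.26 in T (adjusted p = 0.486), in edgeR's test. The T libraries at 15254, 11822 and 11261 RPKM were above the other 12, and T 161 at 6750 was not. Without the 4 libraries of genotype 161 the T difference was 1.12 with an adjusted p of 0.0313. Over the 9 tested lipid carriers, 8 were lower in S, with a median of -0.26, and 8 were higher in T, with a median of 0.14, against medians of 0.02 and 0.00 over all records. Colony T had 12 called records, 0.143% of those tested, none of them a member. At an unadjusted p under 0.05 there were 4 members in T, beside 5.53% of records, and 32 of 53 were above 0, beside 50.1%.

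In colony K no acid phosphatase passed in edgeR. Acid phosphatase XM_003394387.1 stood at 59.2, 62.8, 48.6 and 65.3 RPKM in K and between 21.8 and 56.3 in the other colonies. Its log2 difference was 0.59 ± 0.12, with an adjusted p of 0.0725 in edgeR and 0.00316 in DESeq2. All 9 tested acid phosphatases had an estimate above 0 in K, with a median of 0.11, against 53.6% of all records and a median of 0.02. Without the K control, S 075 and L 161 the count was 7 of 8. In edgeR K had 30 called records, 0.357% of those tested, and 0 members, with 1 member at an unadjusted p under 0.05, beside 7.41% of records. In DESeq2 71 of 8406 records were called in K, 1 of them a member.

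Colony L had the most members at a low unadjusted p, 10 of 53, 18.9%, beside 12.9% of records, and 9 called records, 0.107%, none a member. The 10 became 7 without L 161 and 16 without L 068. Estimates were above 0 for 24 of 53, beside 45.4%. Acid phosphatase XM_003394432.1 had a log2 difference of -1.07 ± 0.28 (adjusted p = 0.242, edgeR) and cathepsin O one of -0.79 ± 0.21 (adjusted p = 0.243). Cathepsin O stood at 7.67, 12.3, 10.8 and 4.22 RPKM in the L control, L 068, L 075 and L 161 and between 8.51 and 20.8 elsewhere. Alpha-mannosidase XR_131906.1 was higher in L by 0.44 ± 0.13, at 53.2 to 67.7 RPKM. In DESeq2 2 of these passed, acid phosphatase XM_003394432.1 (adjusted p = 0.0155) and cathepsin O (0.0268). Of the 17 pump records 11 were lower in L, with a median of -0.09.

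**Figure D5:**
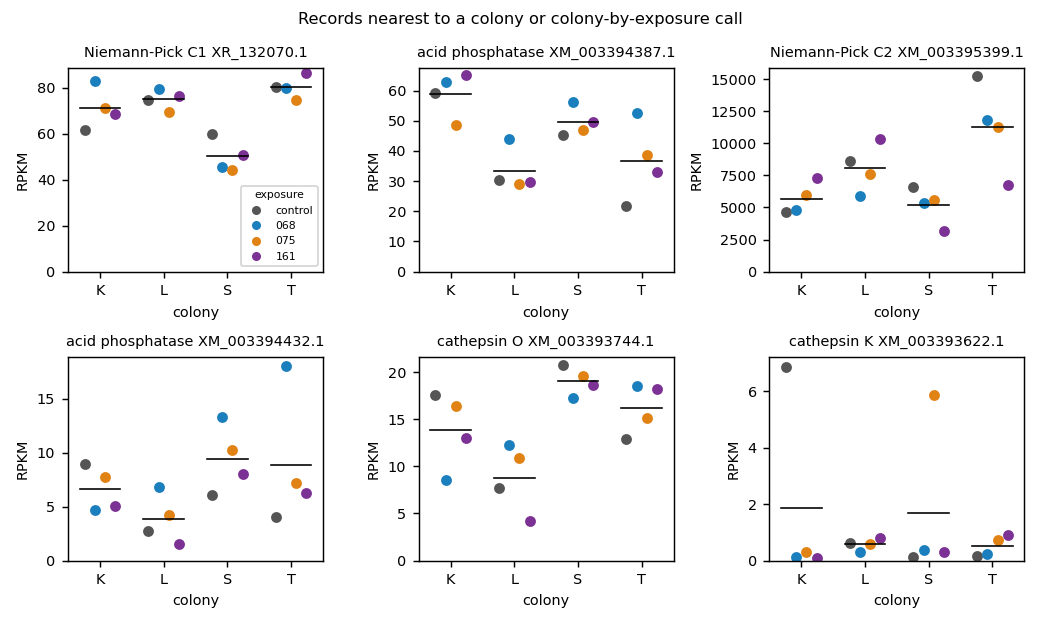
Levels in RPKM of 6 records nearest to a colony call or to a colony-by-exposure call, with colonies on the horizontal axis, libraries as points coloured by exposure and a bar for the mean of 4; the vertical axes start at 0 and differ between panels. Niemann-Pick C1 XR_132070.1 is low in all 4 S libraries, Niemann-Pick C2 is high in 3 T libraries, and cathepsin K is high in the K control and S 075 among the 16.

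Because the study crossed host colonies with parasite genotypes, the last comparison asked whether the step from control to exposed differed between colonies. The 3 exposed libraries of a colony, each of another genotype, stood as its replicates, so differences between genotypes counted as spread. The interaction test called 142 of 8406 records, 1.69%, and no member in edgeR. Unadjusted p was under 0.05 for 2 of 53 members, 3.77%, beside 10.7% of records. Each colony has 1 control library, and the count over all records moved with single libraries, to 3 without K 068, 5 without K 161, 58 without T 068, 70 without L 075 and 250 without L 161. It was 0 without colony K and 345 without colony L. The lowest adjusted p among members was that of cathepsin K, at 0.192 in edgeR and 0.0130 in DESeq2. Its values turn on the K control at 6.88 RPKM and S 075 at 5.88, and without S 075 it passed in edgeR (adjusted p = 0.0470). Niemann-Pick C1 XR_132070.1 followed with an adjusted p of 0.241. Colony by genotype had 1 library for each combination, so that interaction was not tested.

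The wider degradation pathway was read from lists of descriptions with the 57 records left out. In edgeR no record of any list was called in an exposure comparison. Of 25 tested lysosomal glycosidases and sulfatases 11 were above 0 in exposed guts, with a median log2 difference of -0.01, and of 25 records for lysosomal lipid and protein turnover 9 were, with -0.04. Trafficking to lysosomes gave 14 of 23 and 0.02, autophagy 9 of 12 and 0.06, and the nutrient-sensing TOR and MITF list 1 of 3 and -0.02, against -0.02 over all records. The lists match words and are not confined to lysosomal proteins. They include a dynein light chain of the roadblock type, an extracellular sulfatase, and neutral and alkaline ceramidases. Glucosylceramidase was in both the glycosidase list and the lipid and protein turnover list. The counts and medians therefore describe the lists and not a lysosomal pathway alone.

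One enzyme of these lists was called between colonies. Over all 8406 records, the colony F-test called 39, 0.464%, and the comparison of K with the other colonies 30, 0.357%. Glucosylceramidase (LOC100643512, XM_003402841.1), which removes glucose from glucosylceramide with the help of a saposin, stood at 7.38, 9.47, 7.15 and 7.27 RPKM in the K control, K 068, K 075 and K 161. The other 12 libraries ran from 12.3 to 20.9 RPKM. The groups thus did not overlap in RPKM (in CPM, K ranges were apart for 0.464% of all records). The log2 difference of K was -1.02 ± 0.16 (adjusted p = 0.0113, edgeR), and the adjusted p of the colony F-test was 0.0188, a call lost in 7 of 26 alternatives, with a highest adjusted p of 0.316. The K call held in 21 of 26 alternatives and was lost without K 075, without K 161 and without the controls, 075 or 161 as a whole, with a highest adjusted p of 0.245. Saposin itself stood at 286, 226, 229 and 240.5 RPKM in the K libraries, within the range of the other colonies. Hexosaminidase (LOC100649144, XM_003397767.1) was the most abundant of the glycosidases at 375 ± 53.1 RPKM, CD63 (LOC100648109, XM_003399449.1), a membrane protein of late endosomes, of the trafficking list at 381 ± 25.2, and the autophagosome protein Atg8 (LOC100645690, XM_003400639.1) of the autophagy list at 287 ± 34.4.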

How the data were processed

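Gut poly(A) RNA of 16 pools of 3 workers was sequenced on an Illumina instrument, per the labels' protocols. The submitters' processing notes name TopHat 1.9; the counting program, build and annotation release are not given in the sources used here. The authors deposited, per the file headers, a read count, an RPKM and a percent coverage for each of 10635 records in each library, and a KEGG hit score for each record. The deposited counts summed to the header totals in 16 of 16 libraries, and the deposited RPKM matched reads over length and total in 151539 of 151539 cells above 0 (relative tolerance 1e-06). Symbols come from a RefSeq table that matched 33 of 57 members; its coordinates and any sequences are not used here.

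The quasi-likelihood test of edgeR 4.0.16 (R 4.3.3) was run on the counts after TMM scaling and filterByExpr by exposure, which kept 8406 records, 53 of them members. Exposure and colony were the model's terms, with 9 residual degrees of freedom and a common biological coefficient of variation of 0.282. Benjamini-Hochberg adjustment ran over all records, with 0.05 as threshold. The interaction of colony with exposed state left 8. Replicate numbers are the colonies, per the labels, so exposure comparisons are paired by colony. CPM was scaled by TMM. DESeq2 1.42.0, other scalings, no filter, no block and left-out libraries were alternatives. A higher score minimum only took members away from the main fit, so it could not add a call. The fits were also run on simulated counts with known changes. Those counts held no other differences between colonies or exposures, unlike these data, so the runs concern the code and not these results.

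The members, lists and named records were chosen with earlier results of these data known. Named members are the 4 highest by RPKM in each role, the 3 lowest unadjusted p of each comparison with control, and the widest and narrowest shared names; others were named after their values were seen. The 4 members not tested are XM_003395199.1, XM_003396130.1, XM_003397773.1 and XM_003400182.1. A count of 0 is not read as absence: up to 3 reads, 0.323 to 0.354 RPKM for a record of 1 kb, could be missed by counting error.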

Additional observations from a re-analysis of the deposited data

Results flagged for a closer look

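In 136 groups of 4 libraries of 1 exposure, over 34 named members, 8 held a library far from the other 3, and chance gives about 1 in 20. The abundant Niemann-Pick C2 XM_003395399.1 stood at 11822 RPKM in T 068, against 4786 to 5856 in the other 068 libraries. Niemann-Pick C1 XR_132070.1 stood at 45.7 RPKM in S 068, against 79.5 to 82.8, and at 44.2 in S 075, against 69.7 to 74.9. Saposin XM_003394802.1 stood at 128 RPKM in L 161, against 240.5 to 261. In the L control, pump subunit G XM_003394810.1 stood at 190 RPKM against 233 to 242, and VTA1 XM_003394363.1 at 37.2 against 46.3 to 48.1. Cathepsin F XR_131951.1 stood at 99.2 RPKM in T 068, against 126 to 128, and the accessory protein S1 XM_003401213.1 at 234 in K 075, against 199 to 204.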

How the results depend on the processing

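No exposure comparison gained a called member under any alternative run. Of 26 differences of named members followed over the alternatives, 25 kept their direction. Cathepsin D in exposed guts turned from 0.05 to -0.09 without the K control, -0.10 without colony K and -0.17 without the K control, S 075 and L 161, and stood between -0.10 and 0.17 when single libraries or colonies were left out. Other scalings moved the median of all records by at most 0.03 (log2). DESeq2 called 3 members in the colony F-test, 1 each in colony K, colony S and the interaction, and 2 in colony L. Over all 8406 records it called 233 in the colony F-test and 71 in colony K, more than edgeR's 39 and 30. Its counts of members are therefore not to be set beside edgeR's shares of all records. With no replicate block, which unpairs the exposures, 1 member passed in colony S and 1 in the colony F-test, XR_132070.1 in both; leaving out the K control, S 075 and L 161 gave the same 1 and 1. Leaving out single libraries, exposures or colonies gave 0 to 1 members in K, L, S, T and the colony F-test, and 0 to 2 in the interaction, where 2 passed without colony L (XM_003395619.1 and XR_132070.1). K gained acid phosphatase XM_003394387.1 without T 068 and L gained XM_003394432.1 without K 068. Over all records, leaving out libraries, exposures or colonies gave 14 to 128 calls in the colony F-test, 7 to 36 in K, 3 to 17 in L, 4 to 170 in S, 9 to 16 in T and 0 to 345 in the interaction, with the highest counts of the F-test, K, S and T without the K control. The cause was not tested. The interaction was not run without 3 libraries, without the block or without a control library, where it could not be fitted. Records of a few reads, such as cathepsin K, are limited by depth.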
